A study of Coturnix japonica with 4 samples.

Results

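The genes described here are those that were at least 1.5-fold higher in the yellow-labelled than in the black-labelled skin of Japanese quail embryos (Coturnix japonica). Both groups were untreated embryos at embryonic day 7. By the labels, yellow-labelled skin was cut from the yellow stripes and black-labelled skin from the black stripes. The labels also give 2 RNA sequencing libraries per stripe, with tissue of 4 embryos pooled in each library. The labels used here give no strain and no sex. The deposited table holds 1 value per stripe in RPKM, the number of reads divided by transcript length and by the total of mapped reads. No spread between libraries can therefore be given, and all values below are the authors' group values without SD or n. The depth behind them is unknown.

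Of 12383 genes in the table, 8383 met the limits on level and ID, which are a mean of both values from 2 to under 100 RPKM, a black-labelled value above 0 and an ID outside several large gene families. Among these, 64 genes were at least 1.5-fold higher under the yellow label, which is 0.763% of them. The same rule turned round took 108 genes that were at least 1.5-fold higher under the black label, or 1.29%. A further 15 genes reached the same ratio and level but were left out by ID. They were the 4 pigment genes TYR, TYRP1, DCT and MLANA and 11 genes of the families left out. The 64 genes were chosen by the ratio of the 2 values, so their ratios and the authors' p-values on the same contrast describe the choice and test nothing.

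Quail embryos carry longitudinal dark and light stripes. Their pigment is made by melanocytes, which come from the neural crest, enter the skin and pass melanosomes into the feather epidermis. Agouti signal from the dermis turns melanocytes from black to yellow pigment, and the dermis and epidermis that surround them exchange Wnt, bone morphogenetic protein, endothelin and growth factor signals while feather buds form.

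The stripe names and the pigment genes ran in opposite directions. TYRP1, an enzyme of black pigment synthesis, reached 68.2 RPKM under the yellow label, against 2.71 RPKM under the black label. TYR, the first enzyme of melanin synthesis, was listed at 57.3 RPKM under the yellow label and 4.68 RPKM under the black label. ASIP, the agouti signal, had 10.4 RPKM under the yellow label and 29.4 RPKM under the black label. For that reason the groups are called by their labels throughout, and "higher under the yellow label" does not say that a gene was higher in yellow skin. The tissue is a bulk dissection, in which fewer cells of a type and less RNA per cell cannot be told apart.

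The ratios in the set were mostly small. The median ratio of yellow-labelled to black-labelled RPKM was 1.70 and the middle of the distribution, between the quartiles, ran from 1.57 to 1.91. Of the 64 genes, 51 lay under 2-fold, 13 reached 2-fold (0.155% of the 8383 genes) and 7 reached 3-fold. The genes were also less abundant than the genes they were drawn from, with a median mean level of 5.60 RPKM against 15.0 RPKM over the 8383 genes. Over those 8383 genes the log2 ratio of yellow-labelled over black-labelled was centred on 0.00 (median), with 0.22 as its SD. The share of genes that entered the set was 2.40% at 2 to under 4 RPKM, 1.24% at 4 to under 10 RPKM and 0.346% from 10 RPKM upward, so the rule took low genes more often. Its floor lies on the mean of both values, and 12 of the 64 genes had a black-labelled value under 2 RPKM.

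**Figure D1:**
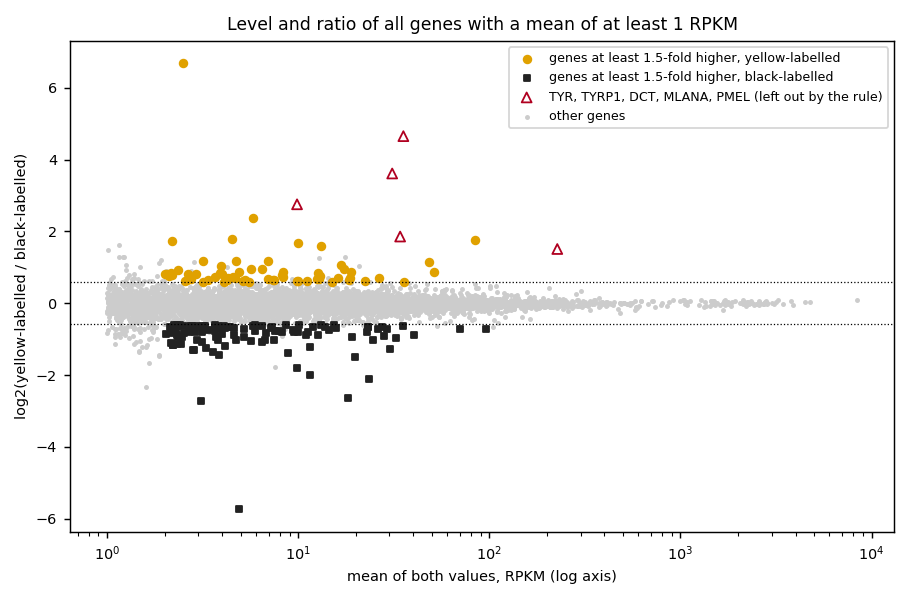
Ratio of the yellow-labelled to the black-labelled value (log2, vertical axis) against the mean of both values (RPKM, log axis) for every gene at a mean of 1 RPKM or more. Gold circles are the 64 genes higher under the yellow label, black squares the 108 genes higher under the black label, red triangles 5 pigment genes that the rule leaves out, and dotted lines mark 1.5-fold. Most gold points lie near the line and below 20 RPKM, and the pigment genes stand above most of them.

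A q-value (false discovery rate) below 0.05 is given for 9 of the 64 genes by the authors' deposited table, where 0.161% of the 10569 genes with p under 1 passed that threshold in the same direction. An unadjusted p under 0.05 was listed for 54 of the 64 genes, beside 1.39% of all genes in the same direction. Both shares follow from a choice made on the same contrast. For 20 genes of the set the q-value in the authors' deposited table was 1.

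**Figure D2:**
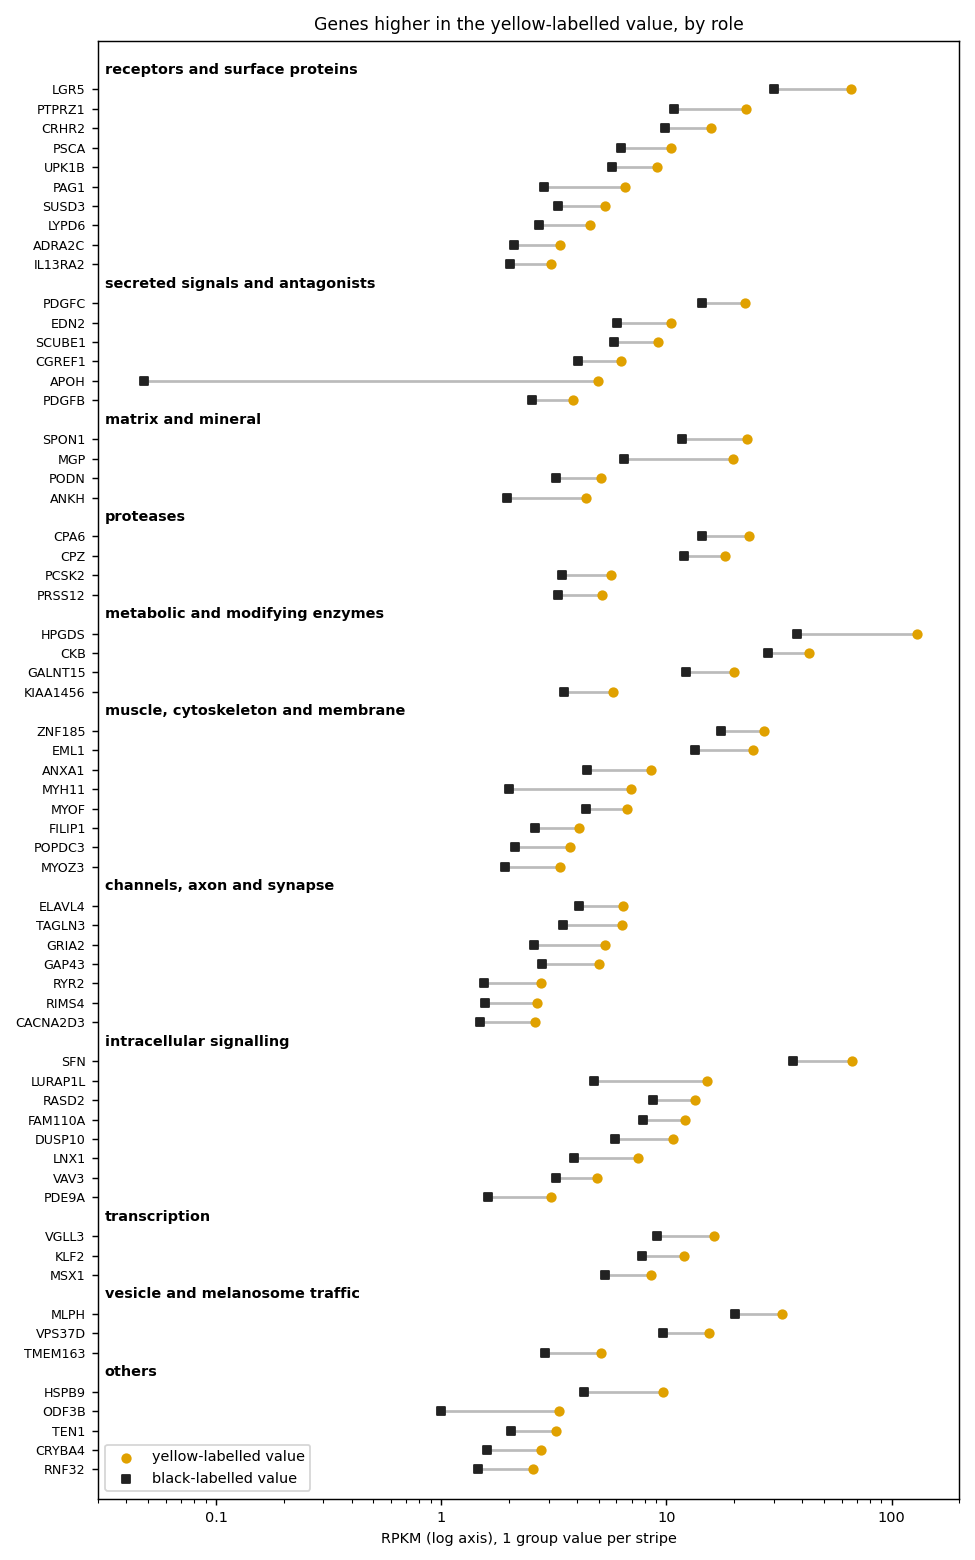
RPKM (log axis) of 62 of the 64 genes, ordered by role and by level within a role. Gold circles are the yellow-labelled and black squares the black-labelled value, 1 group value each, so no error bars can be drawn. HPGDS reaches 130 RPKM under the yellow label, SFN and LGR5 about 66 RPKM, and APOH alone has a black-labelled value far below 1 RPKM.

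The largest group by role was receptors and other proteins of the cell surface, with 10 genes. LGR5, a receptor of R-spondins that amplifies Wnt signals and marks stem cells of hair follicle and gut in mice, reached 66.2 RPKM under the yellow label, against 29.995 RPKM under the black label, a 2.21-fold ratio. PTPRZ1, a receptor phosphatase of glial cells that binds pleiotrophin, was listed at 22.5 RPKM under the yellow label and 10.8 RPKM under the black label, 2.08-fold. The authors' deposited table gives both q = 0.0177, its lowest q-value. PAG1, an adaptor that brings the kinase Csk to the membrane, had 6.54 RPKM under the yellow label and 2.87 RPKM under the black label, with q = 0.0933 in the authors' deposited table.

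The other receptors lay between 1.53-fold and 1.67-fold. CRHR2, a receptor for urocortins, reached 15.8 RPKM under the yellow label, against 9.86 RPKM under the black label. ADRA2C, an adrenaline receptor, was listed at 3.38 RPKM under the yellow label and 2.1 RPKM under the black label. IL13RA2, which binds interleukin 13 without passing on its usual signal, had 3.08 RPKM under the yellow label and 2.02 RPKM under the black label. Of these 3 receptors IL13RA2 did not reach an unadjusted p of 0.05 in the authors' deposited table (p = 0.105). UPK1B, a tetraspanin known from the bladder lining, reached 9.07 RPKM under the yellow label, against 5.76 RPKM under the black label. PSCA and LYPD6 belong to the Ly6 family of surface proteins, and LYPD6 promotes Wnt signalling in zebrafish. PSCA was listed at 10.5 RPKM under the yellow label and 6.26 RPKM under the black label. LYPD6 had 4.56 RPKM under the yellow label and 2.73 RPKM under the black label. SUSD3, a membrane protein with a sushi domain, reached 5.34 RPKM under the yellow label, against 3.29 RPKM under the black label, and p = 0.0655 in the authors' deposited table.

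Secreted signals formed a group of 7, none with a q-value below 0.05 in the authors' deposited table. EDN2, an endothelin whose family acts on melanocyte precursors, was listed at 10.5 RPKM under the yellow label and 6.02 RPKM under the black label, 1.74-fold. Both ligands of the platelet-derived growth factor family in the set were near the threshold on the ratio. PDGFC, a ligand of the mesenchymal receptor PDGFRA, reached 22.4 RPKM under the yellow label, against 14.3 RPKM under the black label. PDGFB, which recruits pericytes to vessels, was listed at 3.84 RPKM under the yellow label and 2.52 RPKM under the black label, with p = 0.0826 in the authors' deposited table. SCUBE1, a secreted and membrane-bound protein with epidermal growth factor repeats, had 9.13 RPKM under the yellow label and 5.84 RPKM under the black label. CGREF1, a secreted protein with calcium-binding EF hands, reached 6.26 RPKM under the yellow label, against 4.05 RPKM under the black label.

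APOH was the gene with the highest ratio in the set. This plasma glycoprotein, which binds phospholipids, was listed at 4.96 RPKM under the yellow label and 0.048 RPKM under the black label. The ratio of 103 rests on a black-labelled value close to 0 at unknown depth, and it became 5.68 with 1 RPKM added to both values. Its q-value in the authors' deposited table was 0.259.

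Of the 4 genes of matrix and mineral handling, 3 (MGP, ANKH and SPON1) had a q-value below 0.05 in the authors' deposited table. MGP, a secreted inhibitor of calcification, had 19.7 RPKM under the yellow label and 6.46 RPKM under the black label, 3.05-fold. ANKH, which raises the level of the mineralisation inhibitor pyrophosphate outside cells, reached 4.42 RPKM under the yellow label, against 1.97 RPKM under the black label, 2.25-fold, and the authors' deposited table gives it q = 0.0312. SPON1, a matrix protein that guides axons at the floor plate of the neural tube, was listed at 22.8 RPKM under the yellow label and 11.7 RPKM under the black label, 1.95-fold. PODN, a small leucine-rich proteoglycan, was lower in level, at 5.10 RPKM under the yellow label and 3.25 RPKM under the black label.

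The 4 proteases lay close together, between 1.52-fold and 1.65-fold, and each had an unadjusted p below 0.05 in the authors' deposited table. CPA6, a carboxypeptidase of the extracellular matrix, had 23.2 RPKM under the yellow label and 14.3 RPKM under the black label. CPZ, a carboxypeptidase with a frizzled-like domain, reached 18.2 RPKM under the yellow label, against 11.96 RPKM under the black label. PCSK2, a convertase that cuts prohormones such as the melanocortin precursor, was listed at 5.66 RPKM under the yellow label and 3.43 RPKM under the black label. That precursor, POMC, lay under 1 RPKM in both, at 0.224 RPKM under the yellow label and 0.085 RPKM under the black label. PRSS12, a serine protease that cuts agrin at synapses, had 5.15 RPKM under the yellow label and 3.31 RPKM under the black label.

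Among metabolic and modifying enzymes HPGDS stood out by level. HPGDS, which makes prostaglandin D, reached 130 RPKM under the yellow label, against 38.1 RPKM under the black label, 3.42-fold, and was the most abundant gene of the set. Its q-value in the authors' deposited table was 0.0177. CKB, a creatine kinase, was listed at 43.0 RPKM under the yellow label and 28.3 RPKM under the black label, 1.52-fold. GALNT15, which starts sugar chains on mucin-type proteins, had 19.9 RPKM under the yellow label and 12.3 RPKM under the black label. KIAA1456, named TRMT9B in the deposited sheet and listed there as a putative transfer RNA methyltransferase, reached 5.78 RPKM under the yellow label, against 3.51 RPKM under the black label.

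Genes of muscle, cytoskeleton and membrane numbered 8, of which 7 had an unadjusted p below 0.05 in the authors' deposited table. MYH11, the myosin heavy chain of smooth muscle, was listed at 6.97 RPKM under the yellow label and 2.00 RPKM under the black label, 3.49-fold. EML1, which binds microtubules, had 24.2 RPKM under the yellow label and 13.4 RPKM under the black label, 1.82-fold. The authors' deposited table gives both q = 0.0177. ANXA1, a calcium-dependent membrane-binding protein of epithelia and leukocytes, reached 8.56 RPKM under the yellow label, against 4.42 RPKM under the black label, 1.94-fold. ZNF185, an actin-associated LIM protein, was listed at 27.1 RPKM under the yellow label and 17.6 RPKM under the black label. MYOF, a ferlin of membrane repair, had 6.67 RPKM under the yellow label and 4.41 RPKM under the black label. The last 3 were low in level. FILIP1, a partner of filamin, reached 4.08 RPKM under the yellow label, against 2.62 RPKM under the black label. POPDC3, a muscle membrane protein of the Popeye family, was listed at 3.72 RPKM under the yellow label and 2.13 RPKM under the black label. MYOZ3, a protein of the muscle Z disc, had 3.37 RPKM under the yellow label and 1.92 RPKM under the black label, and at p = 0.405 in the authors' deposited table it was the exception.

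Of channels and of genes known from axons and synapses there were 7, all with an unadjusted p under 0.05 and none with a q-value below 0.05 in the authors' deposited table. GRIA2, a subunit of AMPA glutamate receptors, reached 5.32 RPKM under the yellow label, against 2.57 RPKM under the black label, 2.07-fold. RYR2, a calcium release channel, was listed at 2.78 RPKM under the yellow label and 1.56 RPKM under the black label. CACNA2D3, an auxiliary subunit of voltage-gated calcium channels, had 2.61 RPKM under the yellow label and 1.48 RPKM under the black label. With 1 RPKM added to both values RYR2 came to 1.48-fold, CACNA2D3 to 1.453-fold and RIMS4 to 1.42-fold, below the threshold. ELAVL4 also fell below it. GAP43, a protein of growing axons, reached 4.99 RPKM under the yellow label, against 2.79 RPKM under the black label. ELAVL4, a neuronal RNA-binding protein, was listed at 6.41 RPKM under the yellow label and 4.07 RPKM under the black label. RIMS4, of a family that organises synaptic vesicle release, had 2.66 RPKM under the yellow label and 1.57 RPKM under the black label. TAGLN3, a neuronal relative of the smooth muscle protein transgelin, reached 6.34 RPKM under the yellow label, against 3.47 RPKM under the black label, 1.83-fold.

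The 8 genes of intracellular signalling all had an unadjusted p below 0.05 in the authors' deposited table. SFN, the epithelial 14-3-3 protein, was the most abundant of them, with 66.6 RPKM under the yellow label and 36.4 RPKM under the black label, 1.83-fold. LURAP1L, a little-studied adaptor, was listed at 15.1 RPKM under the yellow label and 4.77 RPKM under the black label, 3.17-fold, and the authors' deposited table gives it q = 0.0537. LNX1, a ubiquitin ligase of the Notch regulator Numb, had 7.46 RPKM under the yellow label and 3.88 RPKM under the black label, 1.93-fold. DUSP10, a phosphatase of stress-activated kinases, reached 10.7 RPKM under the yellow label, against 5.89 RPKM under the black label. RASD2, a small GTPase of the Ras family, was listed at 13.4 RPKM under the yellow label and 8.76 RPKM under the black label. FAM110A, a centrosome protein, had 12.1 RPKM under the yellow label and 7.90 RPKM under the black label. VAV3, an exchange factor of small GTPases, reached 4.91 RPKM under the yellow label, against 3.23 RPKM under the black label. PDE9A, which breaks down cyclic GMP, was listed at 3.08 RPKM under the yellow label and 1.62 RPKM under the black label.

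Transcription was represented by 3 genes. VGLL3, a cofactor of TEAD factors, had 16.3 RPKM under the yellow label and 9.07 RPKM under the black label, 1.80-fold. MSX1, a homeobox factor of neural crest and dermis, reached 8.50 RPKM under the yellow label, against 5.35 RPKM under the black label. KLF2, a factor that endothelium switches on under blood flow, was listed at 11.9 RPKM under the yellow label and 7.80 RPKM under the black label.

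Vesicle traffic held 3 genes. MLPH, which ties melanosomes to the motor myosin Va and whose loss dilutes plumage colour in chicken, had 32.8 RPKM under the yellow label and 20.2 RPKM under the black label. Although it was among the more abundant genes of the set, its p in the authors' deposited table was 0.281. VPS37D, a subunit of the ESCRT-I sorting complex, reached 15.4 RPKM under the yellow label, against 9.62 RPKM under the black label. TMEM163, a zinc transporter of vesicles, was listed at 5.10 RPKM under the yellow label and 2.90 RPKM under the black label.

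The last 5 genes share no role, and 1 of them, HSPB9, had an unadjusted p below 0.05 in the authors' deposited table. HSPB9, a small heat shock protein, had 9.67 RPKM under the yellow label and 4.29 RPKM under the black label, 2.25-fold. ODF3B, a relative of a sperm tail protein, reached 3.35 RPKM under the yellow label, against 0.996 RPKM under the black label, 3.36-fold, with p = 0.0584 in the authors' deposited table. CRYBA4, a lens crystallin, was listed at 2.77 RPKM under the yellow label and 1.597 RPKM under the black label. RNF32, a ring finger protein, had 2.56 RPKM under the yellow label and 1.46 RPKM under the black label. TEN1, a subunit of the telomere-binding CST complex, reached 3.22 RPKM under the yellow label, against 2.04 RPKM under the black label and the highest p of the set in the authors' deposited table, 0.699.

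The ratio and the authors' p did not rank the genes alike. ODF3B and HPGDS had nearly the same ratio, 3.36-fold and 3.42-fold, with p = 0.0584 and p = 5e-05 in the authors' deposited table. EML1 and TEN1 lay much closer in ratio, at 1.82-fold and 1.58-fold, than in p, which was 5e-05 for EML1 and 0.699 for TEN1 in that table. The 10 genes with p of 0.05 or more in the authors' deposited table had a median mean level of 2.64 RPKM, and the 54 others one of 6.95 RPKM. Of the 19 genes with a mean under 4 RPKM, 12 had an unadjusted p below 0.05 in the authors' deposited table, as did 24 of 26 genes at 4 to under 10 RPKM and 18 of 19 genes from 10 RPKM upward. MLPH was the gene above 10 RPKM that did not.

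**Figure D3:**
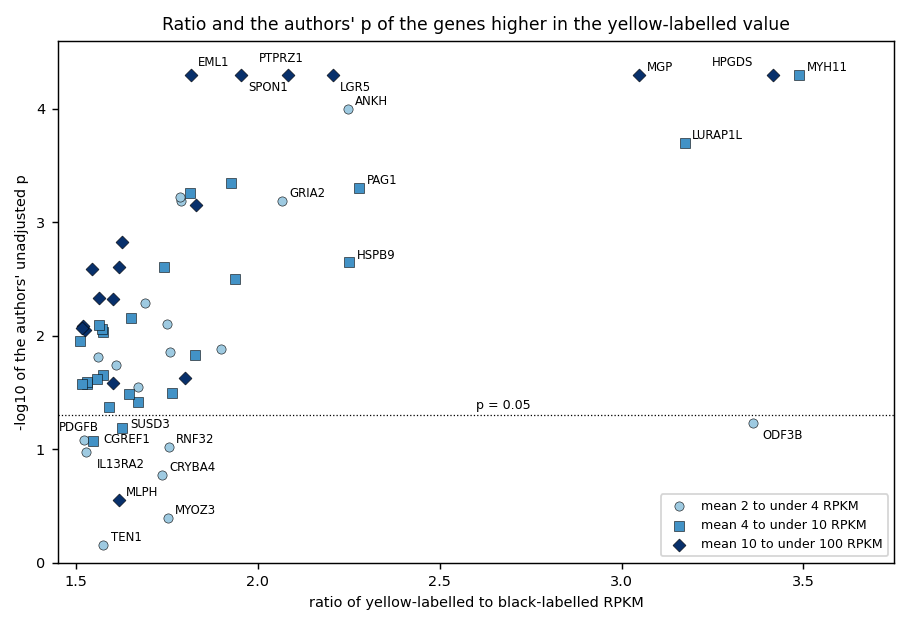
Ratio of yellow-labelled to black-labelled RPKM against the negative log10 of the unadjusted p in the authors' deposited table, for 61 genes of the set (APOH lies off the axis, and 2 genes are not shown). Colours and shapes give the mean level, and the dotted line is the level of an unadjusted p of 0.05. The genes on the top row, among them EML1 at 1.82-fold and MYH11 at 3.49-fold, share the lowest p of 5e-05.

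The genes just inside and just outside the threshold on the ratio were alike in level and in the authors' p. Just inside lay MYOF (1.51-fold), CKB, VAV3, CPZ and PDGFB (all 1.52-fold). Just outside lay GREB1L, with 4.87 RPKM under the yellow label and 3.25 RPKM under the black label, ACTA2, MEGF10, TNC and PIP4K2C, all between 1.488-fold and 1.499-fold. ACTA2, the smooth muscle actin, was listed at 28.6 RPKM under the yellow label and 19.1 RPKM under the black label and p = 0.00865 in the authors' deposited table. TNC, a matrix protein, had 36.2 RPKM under the yellow label and 24.3 RPKM under the black label and p = 0.00395 in the authors' deposited table. Both were listed with a lower p than PDGFB, which entered the set.

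The deposited sheet carries a location and a type for each gene, which the rule did not use. Of the 64 genes, 33 were labelled extracellular space or plasma membrane, which is 51.6%, beside 18.5% of the 8383 genes within the limits on level and ID. Among the 108 genes higher under the black label the share was 47.2%, so a high share was found in both directions. It was also high at each level: 57.9% of the genes of the set at 2 to under 4 RPKM, 46.2% at 4 to under 10 RPKM and 52.6% from 10 RPKM upward, against 28.1%, 21.6% and 15.9% of all genes within the limits. Nuclear location was given for 5 of the 64 genes (7.81%), for 14.8% of the genes higher under the black label and for 28.7% of all genes within the limits. Transcription regulators made up 2 of the 64 genes (3.12%), 12.04% of the genes higher under the black label and 10.02% of all genes within the limits. The HOX, SOX, FOX and TBX families of transcription factors are among the IDs left out of each of these sets, so the shares do not cover them. IDs starting with SLC, COL, KCN, WNT, FGF, ADAM, SEMA, EPH, PCDH, CDH or CLDN were left out as well. The shares by location and of peptidases therefore do not cover those families either. VGLL3, grouped under transcription above, does not carry that type label. Peptidases were 4 of 64 (6.25%), 1.85% of the genes higher under the black label and 2.79% of all genes within the limits. No test was made of these shares. Some labels differ from textbook knowledge: VAV3, a cytosolic protein, is labelled as extracellular and MYOF, a membrane protein, as nuclear.

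**Figure D4:**
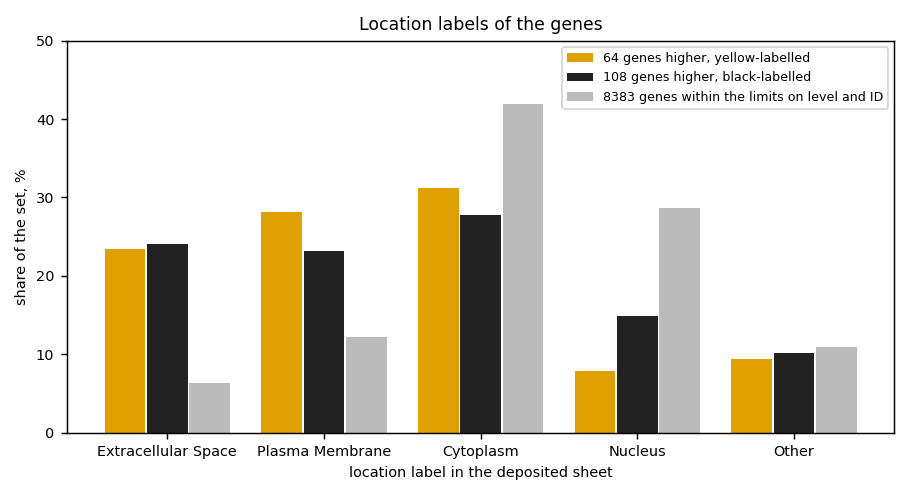
Share of genes (percent) by the location label of the deposited sheet, for the 64 genes higher under the yellow label (gold), the 108 genes higher under the black label (black) and all 8383 genes within the limits on level and ID (grey). Extracellular space and plasma membrane take more of both gene sets than of all genes, and nucleus takes less.

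Close relatives of the genes in the set mostly differed little between the stripes. Relatives at a mean of 1 RPKM or more were found for 37 of the 44 genes for which named relatives were searched, 96 in all. Their median log2 ratio of yellow-labelled over black-labelled was 0.01. Of the 96, 1 was at least 1.5-fold higher under the yellow label and 4 under the black label, beside 1.08% and 1.78% of the 10061 genes at a mean of 1 RPKM or more. The first was FAM110C, a relative of FAM110A, with 1.64 RPKM under the yellow label and 0.672 RPKM under the black label, which lies under the floor of the rule.

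In several families the member of the set and a relative pointed in opposite directions. Among the R-spondin receptors, LGR4 reached 69.5 RPKM under the yellow label, against 65.2 RPKM under the black label, a ratio of 1.07, and LGR6 was listed at 6.89 RPKM under the yellow label and 10.4 RPKM under the black label, a ratio of 0.664. LGR5 thus came near the level of LGR4 under the yellow label and lay below it under the black label. Of the SCUBE family, SCUBE2, which releases hedgehog proteins from cells, had 6.93 RPKM under the yellow label and 16.1 RPKM under the black label, with q = 0.0177 in the authors' deposited table, while SCUBE1 was 1.56-fold higher under the yellow label. Of the carboxypeptidases related to CPZ, CPE, which trims prohormones, reached 19.3 RPKM under the yellow label, against 36.6 RPKM under the black label, and q = 0.0177 in the authors' deposited table. CPXM2 was listed at 0.870 RPKM under the yellow label and 1.90 RPKM under the black label. PCSK2 acts before CPE in prohormone processing, and its ratio of 1.65 stood beside one of 0.529 for CPE.

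In other families the relatives stayed under the 1.5-fold ratio in both directions. The 6 further 14-3-3 genes measured beside SFN had ratios of yellow-labelled over black-labelled between 1.004 and 1.06. The smooth muscle myosin MYH11 was accompanied by MYH9 at a ratio of 1.101 and MYH10 at 0.986, the non-muscle myosins. PDGFA and PDGFD had ratios of 0.986 and 0.869, against 1.56 for PDGFC and 1.52 for PDGFB. EDN3, the endothelin with the highest level here, had 31.4 RPKM under the yellow label and 28.1 RPKM under the black label. No member of the set was compared with its relatives by a test.

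**Figure D5:**
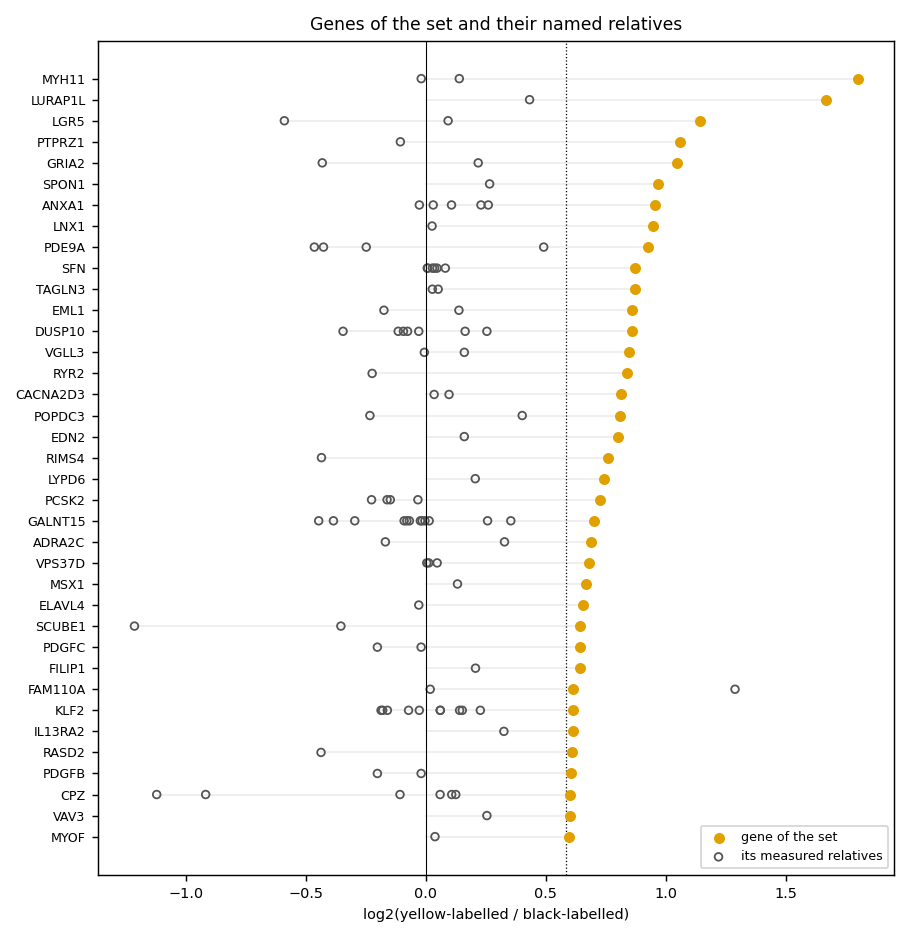
Log2 ratio of yellow-labelled over black-labelled RPKM for the 37 genes of the set with a measured relative (gold) and for those relatives (open circles), 1 row per gene of the set. The dotted line marks 1.5-fold. Relatives gather around 0, with FAM110C to the right of the line and relatives of SCUBE1 and CPZ farthest to the left.

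Of the 29 gene lists, 16 held at least 1 gene of the set, and 21 of the 64 genes were on a list. Of all 10061 genes at a mean of 1 RPKM or more, 1.08% were at least 1.5-fold higher under the yellow label and 1.78% under the black label. The counts that follow stand beside these shares, and since the set was chosen on the same ratio, the presence of its genes in a list shows nothing by itself. In the prostanoid list 17 of 21 genes in the table were measured, meaning a mean of 1 RPKM or more, and HPGDS was the 1 at least 1.5-fold higher under the yellow label, with 0 under the black label. PTGS2, an inducible enzyme that feeds prostaglandin synthesis, was listed at 13.2 RPKM under the yellow label and 10.4 RPKM under the black label. PTGDR, a receptor of prostaglandin D, had 1.103 RPKM under the yellow label and 1.02 RPKM under the black label. HPGD, which breaks prostaglandins down, reached 9.14 RPKM under the yellow label, against 6.27 RPKM under the black label, with p = 0.0682 in the authors' deposited table. The median log2 ratio of the list was 0.07, beside 0.00 over all 10061 genes.

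In the list of R-spondins, their receptors and the Wnt pathway, LGR5 was the 1 gene of 32 measured that was at least 1.5-fold higher under the yellow label, and 5 were under the black label, beside 1.08% and 1.78% of all genes. Among these 5, the R-spondin ligand RSPO2 was listed at 3.58 RPKM under the yellow label and 6.88 RPKM under the black label. The secreted Wnt inhibitor WIF1 had 22.2 RPKM under the yellow label and 43.0 RPKM under the black label. Its q-value in the authors' deposited table was 0.0177. DKK1, also a secreted Wnt inhibitor, had 16.8 RPKM under the yellow label and 29.2 RPKM under the black label. RSPO1, another R-spondin, had 33.3 RPKM under the yellow label and 25.8 RPKM under the black label. AXIN2, a general target of Wnt signals, reached 24.5 RPKM under the yellow label, against 24.8 RPKM under the black label. The list median was -0.06.

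For calcification, 2 of 11 measured genes were at least 1.5-fold higher under the yellow label, MGP and ANKH, and 2 under the black label, beside 1.08% and 1.78% of all genes. The genes higher under the black label were PHEX, a peptidase of mineralising cells, with 8.18 RPKM under the yellow label and 14.3 RPKM under the black label, and ENPP1, which makes pyrophosphate, with 1.66 RPKM under the yellow label and 2.62 RPKM under the black label. GGCX, the enzyme that modifies MGP, was listed at 11.1 RPKM under the yellow label and 11.7 RPKM under the black label. IBSP and AHSG were listed at 0 in both stripes.

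Of 18 measured smooth muscle and pericyte genes, MYH11 was the 1 at least 1.5-fold higher under the yellow label, and DES, the muscle intermediate filament, the 1 under the black label, beside 1.08% and 1.78% of all genes. MYOCD, the coactivator that drives smooth muscle genes, had 13.2 RPKM under the yellow label and 9.64 RPKM under the black label, with p = 0.0448 in the authors' deposited table. TAGLN, a general smooth muscle marker, reached 2.58 RPKM under the yellow label, against 2.53 RPKM under the black label. The median log2 ratio of the list was 0.12, and its summed level was 501 RPKM under the yellow label and 460 RPKM under the black label. Without TPM1, the gene with the widest gap, the sums were 367 RPKM under the yellow label and 347 RPKM under the black label. After TPM1, the most abundant genes in the sum were CALD1 and TPM2. CALD1 had 109 RPKM under the yellow label and 111 RPKM under the black label, and TPM2 71.6 RPKM and 76.2 RPKM. CNN1, LMOD1 and PLN lay under a mean of 1 RPKM and are not in the sums.

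Neuron and axon markers went both ways. GAP43 and ELAVL4 were the 2 of 14 measured markers that were at least 1.5-fold higher under the yellow label, and 3 were under the black label, beside 1.08% and 1.78% of all genes. The list median was -0.21. TUBB3, the neuronal tubulin, was listed at 5.99 RPKM under the yellow label and 10.4 RPKM under the black label. The summed level of the list was 101 RPKM under the yellow label and 106 RPKM under the black label, and POU4F3 was listed at 0 in both. Of 10 measured Schwann cell and glia genes PTPRZ1 was the 1 at least 1.5-fold higher under the yellow label, with 0 under the black label, and the list median was -0.04. SOX10 had 25.2 RPKM under the yellow label and 22.4 RPKM under the black label, and ITGA4, an integrin subunit, 15.1 RPKM under the yellow label and 21.97 RPKM under the black label, with p = 0.00775 in the authors' deposited table. The list summed to 356 RPKM under the yellow label and 346 RPKM under the black label with PTPRZ1, and to 333 RPKM under the yellow label and 336 RPKM under the black label without it.

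Melanosome genes were the list with the most genes past the ratio. Of 29 measured, 9 were at least 1.5-fold higher under the yellow label and 0 under the black label, beside 1.08% and 1.78% of all genes. MLPH was the 1 that belongs to the set. The others were left out by ID or by level. The list summed to 1083 RPKM under the yellow label and 631 RPKM under the black label. Without PMEL, the melanosome fibril protein, it summed to 747 RPKM under the yellow label and 513 RPKM under the black label. The list median was 0.11. Whether the genes of the set follow the difference in sum was not tested. Of 12 measured signals to melanocytes, EDN2 and PCSK2 were the 2 that were at least 1.5-fold higher under the yellow label and 2 were under the black label, beside the same shares. KITLG, the ligand of the melanocyte receptor KIT, lay just outside the ratio, with 22.4 RPKM under the yellow label and 15.1 RPKM under the black label. Of 17 regulators of the melanocyte lineage listed, 15 had a value and 14 were measured. MC1R and EDNRB2 had no value. Of the 14 measured, 0 were at least 1.5-fold higher under the yellow label and 1 was under the black label. This was FOXD3, with 7.36 RPKM under the yellow label and 11.8 RPKM under the black label.

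Among 21 measured channels and receptors 3 belonged to the set, which were GRIA2, RYR2 and CACNA2D3. In all, 4 of the 21 were at least 1.5-fold higher under the yellow label and 1 under the black label, beside 1.08% and 1.78% of all genes. Other lists held 1 gene of the set each, among them SPON1 among 45 measured matrix glycoproteins, SFN among 33 genes of the epidermis, MSX1 among 22 dermal fibroblast genes, SCUBE1 among 14 hedgehog pathway genes, CPZ among 21 proteases and inhibitors, and APOH among 17 genes of fat cells and lipid handling. At least 1.5-fold higher were 2 matrix genes under the yellow label and 4 under the black label, 2 proteases and inhibitors under the yellow label and 3 under the black label, and 1 epidermis gene under the yellow label and 2 under the black label. The hedgehog list and the fat cell list each had 1 under the yellow label and 1 under the black label, and the fibroblast list 1 under the yellow label and 0 under the black label.

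The lists without a gene of the set were melanocyte regulators, endothelium, leukocytes, red blood cells, skeletal muscle, cartilage and bone, cyclic AMP signalling, retinoid handling, the Notch pathway, interferon and innate defence, glutathione enzymes, proliferation and housekeeping. In 2 of these lists genes outside the limits of the set were at least 1.5-fold higher under the yellow label, 1 of 27 measured in cyclic AMP signalling and 2 of 22 in retinoid handling, and in the rest there was none. Higher under the black label by the same ratio were 2 genes in cyclic AMP signalling, 2 in retinoid handling, 3 of 17 measured in the Notch pathway, 3 of 8 in skeletal muscle, 2 of 11 in cartilage and bone and the 1 melanocyte regulator named above. Over all genes the shares were 1.08% under the yellow label and 1.78% under the black label.

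Markers of the tissue and of other cell types were summed for each stripe. Of 56 genes on the epidermis list, 35 were in the table and 33 were measured. Those measured summed to 1040 RPKM under the yellow label and 935 RPKM under the black label. Without SFN, which belongs to the set, the sums were 973 RPKM under the yellow label and 899 RPKM under the black label. The median log2 ratio of that list was 0.06. Dermal fibroblast genes, with 22 of 23 measured, summed to 1642 RPKM under the yellow label and 1725 RPKM under the black label, or without DCN to 1203 RPKM under the yellow label and 1194 RPKM under the black label. Endothelial genes, with 23 of 25 measured, summed to 271 RPKM under the yellow label and 278 RPKM under the black label. Leukocyte genes, with 9 of 14 measured and CD8A at 0, summed to 66.6 RPKM under the yellow label and 71.3 RPKM under the black label. Skeletal muscle genes, with 8 of 20 measured and MYF6 at 0, summed to 31.3 RPKM under the yellow label and 45.9 RPKM under the black label. Most of that gap lay in TNNC1, a troponin, without which the sums were 18.3 RPKM under the yellow label and 20.8 RPKM under the black label. Cartilage and bone genes, with 11 of 14 measured, summed to 146 RPKM under the yellow label and 197 RPKM under the black label. Without COL2A1 they summed to 104 RPKM under the yellow label and 133 RPKM under the black label. Of 14 red blood cell genes listed, 3 were in the table and 2 were measured, SLC4A1 and TAL1. These 2 summed to 4.32 RPKM under the yellow label and 4.01 RPKM under the black label. Fat cell and lipid genes, with 17 of 22 measured, summed to 380 RPKM under the yellow label and 431 RPKM under the black label. The lower fat list sum under the yellow label lay in 2 genes. FABP3 had 128.9 RPKM under the yellow label and 169 RPKM under the black label, and APOA1 5.05 RPKM under the yellow label and 31.5 RPKM under the black label, while the list median was 0.04. Median log2 ratios of the lists of this paragraph ran from -0.25 for cartilage and bone to 0.11 for the 2 red blood cell genes. Their part in the ratios of the set was not tested.

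In the annotation of Coturnix japonica 2.1, used for gene order alone, 61 of the 64 genes were found. No gene of the set was the direct neighbour of another. LURAP1L was the direct neighbour of TYRP1, the gene with the highest ratio among pigment genes, and the spans of both genes did not overlap there. LURAP1L was 3.17-fold and TYRP1 25.2-fold higher under the yellow label, while MPDZ, the neighbour of LURAP1L on the other side, reached 16.8 RPKM under the yellow label, against 16.7 RPKM under the black label. The sources used here do not say whether reads were counted by strand, and a contribution of TYRP1 reads to LURAP1L was not tested. MSX1 lay beside CYTL1, which was listed at 4.39 RPKM under the yellow label and 15.2 RPKM under the black label, the opposite direction. POPDC3 lay beside its relative BVES, which had 12.6 RPKM under the yellow label and 9.50 RPKM under the black label. Leaving TYRP1 aside, the highest ratio among 76 measured neighbours was 1.42, under the threshold of the set.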

How the data were processed

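The authors' deposited RPKM values hold 1 number per stripe. TopHat2 2.1.1 and Cufflinks 2.2 are named in the submitters' processing notes. Build, annotation, strand setting and the way libraries were combined were not given in the sources used here. Unadjusted p-values and q-values are the authors', per the file headers, from sheets exported from a QIAGEN program. The authors' deposited log2 ratios are black over yellow and lay within 0.01 of those of the RPKM columns, with the sign turned, for each of the 10503 genes at 0.5 RPKM or more under both labels. A further deposited column marks the 366 genes with p under 0.05.

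Of 12419 rows, 36 with an all-digit or repeated ID were left out. Ratios here are yellow-labelled over black-labelled, without a pseudocount. With 1 value per stripe no test was run; thresholds were 1.5-fold, a mean of 2 to under 100 RPKM, and 1 RPKM for members of the 29 lists. The set and the lists were chosen with earlier results of these data known. Genes were named where they reached 2-fold or a q-value under 0.05, were on a list, lay next to the threshold or beside another gene of the set. The others were named by role, a choice made after their values were seen, as were roles and relatives. Of the set, 2 genes are not reported here. Promoter motifs were not searched. Selection and adjustment were tested on simulated data. Python 3.11.15 with pandas 2.3.3 was used. Alternatives covered thresholds, floors, a pseudocount of 1 RPKM, scaling and p-value adjustment.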

Additional observations from a re-analysis of the deposited data

How the results depend on the processing

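No paired analysis was possible because the tables hold 1 value per stripe and no columns of separate libraries, and for the same reason no library could be left out. The set of 64 genes became 109 genes at a ratio of 1.4 and 13 at a ratio of 2, 35 at a floor of 5 RPKM and 37 with 1 RPKM added to both values. With 1 RPKM added, 27 of the 64 genes dropped under 1.5-fold and no other gene entered. It stayed within 1.5 times at a floor of 1 RPKM (88), without an upper limit (65), with the left-out IDs (79) and under median or upper quartile scaling (the same 64 genes each). The 108 genes of the opposite direction became 30 at a ratio of 2, 52 at a floor of 5 RPKM and 71 with 1 RPKM added. The 9 genes of the set with a q-value below 0.05 in the authors' deposited table became 0 at q under 0.01, because its lowest q is 0.0177, and 54 at unadjusted p under 0.05. The 17 genes of the whole table higher under the yellow label became 0 and 147 under the same thresholds. The count in the set was 12 with a floor of 1 RPKM in the rule, an alternative chosen after the data were seen. Scalings moved all log2 ratios by under 0.01. The depth is unknown, so how well low values are determined cannot be given.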

Other observations

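A further 24 genes were at least 1.5-fold higher under the yellow label at a mean of 1 to under 2 RPKM, under the floor of the rule, and 3 of them had a q-value below 0.05 in the authors' deposited table. RAPGEF4, an exchange factor that senses cyclic AMP, reached 1.73 RPKM under the yellow label, against 0.564 RPKM under the black label. SYT13, of the synaptotagmin family of vesicle proteins, was listed at 2.68 RPKM under the yellow label and 1.16 RPKM under the black label. MYO5C, a vesicle motor of the same class as the melanosome motor myosin Va, had 2.56 RPKM under the yellow label and 1.18 RPKM under the black label. OCA2, a melanosome channel protein, reached 1.48 RPKM under the yellow label, against 0.530 RPKM under the black label, with q = 0.150 in the authors' deposited table. Above the upper limit of the rule lay 1 gene, PMEL, the fibril protein of the melanosome, with 336 RPKM under the yellow label and 118 RPKM under the black label.

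Direct neighbours of the genes of the set leaned the same way by small amounts. Of 77 measured neighbours outside the set, 54 (70.1%) were higher under the yellow label, with a median log2 ratio of 0.06, where 50.2% of all genes at a mean of 1 RPKM or more were. Of 116 measured neighbours of the genes higher under the black label, 76 (65.5%) were higher under the black label, with a median log2 ratio of yellow-labelled over black-labelled of -0.04. These shares describe 1 pair of group values and were not tested, and whether reads of a gene were counted to its neighbour was not tested either.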
